A study of Mus musculus with 88 samples.

Results

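The proteins described here are the mitochondrial import machinery, the metabolite carriers and porins, and the proteins that shape the cristae, the folds of the inner mitochondrial membrane. They were taken from the trypsin-digest protein table by gene name: every group whose first gene name began with Timm, Tomm, Chchd, Slc25 or Vdac, or was Samm50, Immt, Phb, Phb2, Opa1 or Mtx2. The rule found 42 protein groups among 5899 kept groups. It used no measured value, but it was set with earlier results of these data known. The cells were dendritic cells grown with GM-CSF from bone marrow of female C57BL/6J mice. On day 9 they received LPS (100 ng/ml, a cell wall component of E. coli K12) or a mock stimulus, which was no stimulation, and a 0 h group was taken before either. Each treatment was sampled at 0.5 h, hourly from 1 to 6 h, and at 9, 12 and 24 h, with 2 replicates at each time, and 0 h also had 2, which gave 42 mass spectrometry runs.

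Most mitochondrial proteins are made in the cytosol and imported. The TOM complex of the outer membrane receives them, the small Tim proteins carry hydrophobic precursors across the space between the membranes, and the TIM23 translocase passes precursors through the inner membrane to the matrix. Carriers of the Slc25 family and the porins (VDACs) move metabolites across the inner and the outer membrane, and prohibitins, the MICOS complex (here Immt, Chchd3 and Chchd6) and the fusion GTPase Opa1 organise the inner membrane. Activated dendritic cells are known for a shift of their energy metabolism towards glycolysis.

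All groups shared the same labelling. Cells were grown in medium-labelled arginine and lysine (M), pooled, and moved to heavy-labelled amino acids (H) at the stimulus, so M marked protein made before it and H protein made after it. An unlabelled mix (L) in every run was the common denominator. Pre-existing protein is M/L, new protein is H/L, and total protein is their sum, each divided by a run factor, the run's median total over 2628 proteins. A total of 1 is therefore the level of the median protein in that run, and every value is relative to the other proteins. The labels do not say that the replicates were separate cultures, so every p-value here speaks of the spread of the deposited samples alone, and that spread may be technical. The protocol's harvest times end at 12 h, and how the 24 h samples were treated is not stated in the labels.

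Of the 42 members, 23 had an M/L ratio in all 42 runs and 21 an H/L ratio in all. A run measured M/L for 30 to 36 members, from 539 to 787 peptide pairs of its 68083 to 109064. The best covered member of each role class was Tomm34 for the outer membrane translocases (1633 pairs over all runs), Timm44 for the inner membrane translocase (444), Timm13 for the small Tims (1048), Chchd5 for the other twin CX9C proteins (122), Phb for cristae and prohibitins (3166), Slc25a5 for the carriers (4181) and Vdac2 for the porins (1796). Tomm34, despite its name, is known mainly as a cytosolic co-chaperone.

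Coverage was thin for some central parts of the machinery. Tomm40, the TOM channel, and the receptor Tomm20 had no ratio in any run (0 of 42). The TIM23 channel protein Timm23 had M/L in 6 runs, its partner Timm17b in 13, and Chchd4, the oxidoreductase that imports twin-cysteine proteins, in 4. Other members with M/L in fewer than all runs were Samm50, the β-barrel insertase (25), Tomm6 (26), Tomm22 (36), Mtx2 (40), Timm10 (31), Chchd1 (11), Chchd5 (39), Chchd6 (36), Chchd7 (16), Chchd8 (now named Coa4, 12), Slc25a10 (31), Slc25a11 (37), Slc25a13 (40) and Slc25a20 (11). Tomm70a, Timm44, Timm50, Timm8a1, Timm8b, Timm9, Timm13, Phb, Phb2, Immt, Chchd3, Opa1, Vdac1, Vdac2, Vdac3, Tomm34, Slc25a1, Slc25a3, Slc25a4, Slc25a5, Slc25a12, Slc25a22 and Slc25a24 had M/L in all 42. Immt rested on 7 unique of 55 peptides, Slc25a4 on 15 of 26, Slc25a5 on 23 of 34, Slc25a12 on 13 of 18, Slc25a13 on 9 of 14 and Opa1 on 35 of 36, so these share peptides with other groups.

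At 0 h the members spanned a wide range of levels by iBAQ, summed intensity per theoretical peptide, given as log10 over the run's median protein. Slc25a5, the main ADP/ATP translocase of proliferating cells, was highest, at 1.98 and 2.11 in the M channel of the 2 replicates. Phb followed at 1.59 and 1.70, Timm13 at 1.57 and 1.57, Timm8a1 at 1.44 and 1.59, Phb2 at 1.40 and 1.48 and Vdac2 at 1.39 and 1.33. The carnitine/acylcarnitine carrier Slc25a20 was lowest at -3.16 and -2.29. Both runs measured 36 members, of which 24 lay above the median protein, and 3 members had no 0 h value. Opa1 also stood high, at 1.80 and 1.89, but its M iBAQ was 66.7 and 112.6 times its L iBAQ, where all proteins had medians of 0.734 and 1.02. In the L channel it lay at the 45.0 and 44.4 percentiles, so its M level at 0 h cannot be taken from intensity.

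**Figure D1:**
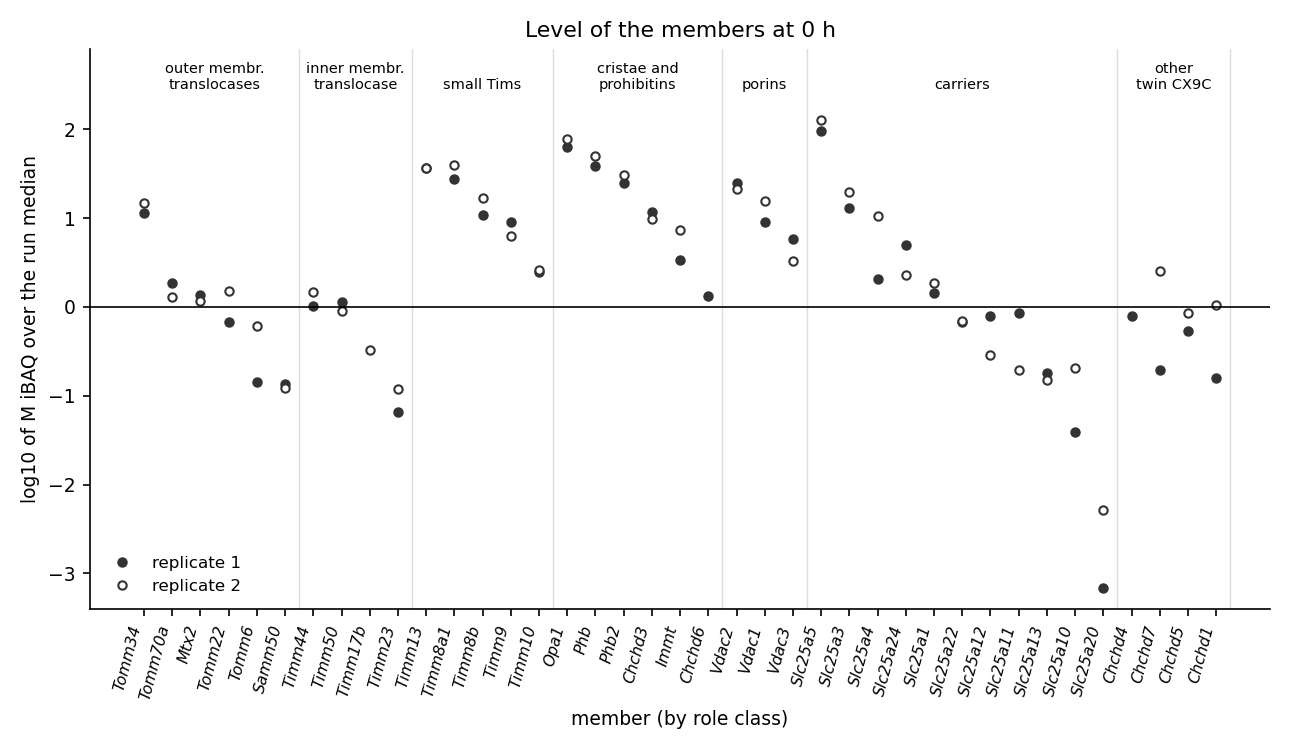
Level of the members at 0 h by role class, as log10 of M-channel iBAQ over the run's median protein (line at 0), with replicate 1 filled and replicate 2 open. Slc25a5 and Phb stood near the top and Slc25a20, at -3.16 and -2.29, at the bottom; the high M level of Opa1 was not matched in the L channel, where it lay at the 45.0 and 44.4 percentiles.

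Members of one assembly differed in level. Vdac2 exceeded Vdac1 by a ratio of iBAQ of 2.72 and 1.36 in the trypsin M channel, 3.21 and 2.39 with AspN and 2.24 and 1.76 with LysN, so the order was the same in all 6 runs. Vdac3 was the least abundant porin, with Vdac1 over Vdac3 between 1.55 (trypsin, replicate 1) and 6.19 (AspN, replicate 1). Slc25a5 exceeded Slc25a4, the translocase isoform of heart and muscle, by 46.8 and 12.2 in the trypsin M channel and by 280.3 and 79.0 with LysN. Phb over Phb2, partners in 1 ring complex, was 1.55 and 1.67 with trypsin but 9.17 and 5.45 with AspN, so this ratio depended on the enzyme. Immt over Chchd3, both of MICOS, was 0.29 and 0.762 with trypsin. Chchd3 over Chchd6 was 8.82 in the 1 trypsin run that measured both. These are descriptions, since no test was made of levels between proteins.

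At 24 h 11 of the 14 import and cristae proteins tested were lower after LPS than after mock, and no carrier or porin passed the test. The exceptions among the 14 were Timm50, Chchd6 and Tomm34. Of 24 members tested in total protein, 11 were lower, 0 were higher and 13 did not pass (limma with Benjamini-Hochberg adjustment over all proteins, adjusted p under 0.05). Among all 3095 proteins tested, 37.8% were called, 20.1% lower and 17.7% higher. The median of the 24 members was -0.55 on the log2 scale and that of all proteins 0.01. The lower ones were 4 of 4 small Tims, 5 of 6 cristae proteins, 1 of 2 inner membrane translocase subunits and 1 of 2 outer membrane proteins, against 0 of 3 porins and 0 of 7 carriers. For the porins and carriers the count at an unadjusted p under 0.05 was also 0. The difference between the classes was not tested. The samples are bulk lysates, in which fewer cells of a type and less protein per cell cannot be told apart.

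These counts depend on how the runs were scaled. Without it, 0 of the 24 members passed, with a member median of -0.31 and a median of all proteins of 0.25. Without it but with the replicate number as a block, a choice made after seeing the data, 7 were lower and 1 higher. With the deposited normalised ratios 2 of the 24 were called, and with summed intensities 4. The median run factor was -0.44 in replicate 1 and 0.04 in replicate 2 (log2). Values not divided by it and not blocked keep that gap in the spread of every protein. The share of all proteins called under such alternatives is not given here or below. Whether these counts are particular to the members is therefore not shown.

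**Figure D2:**
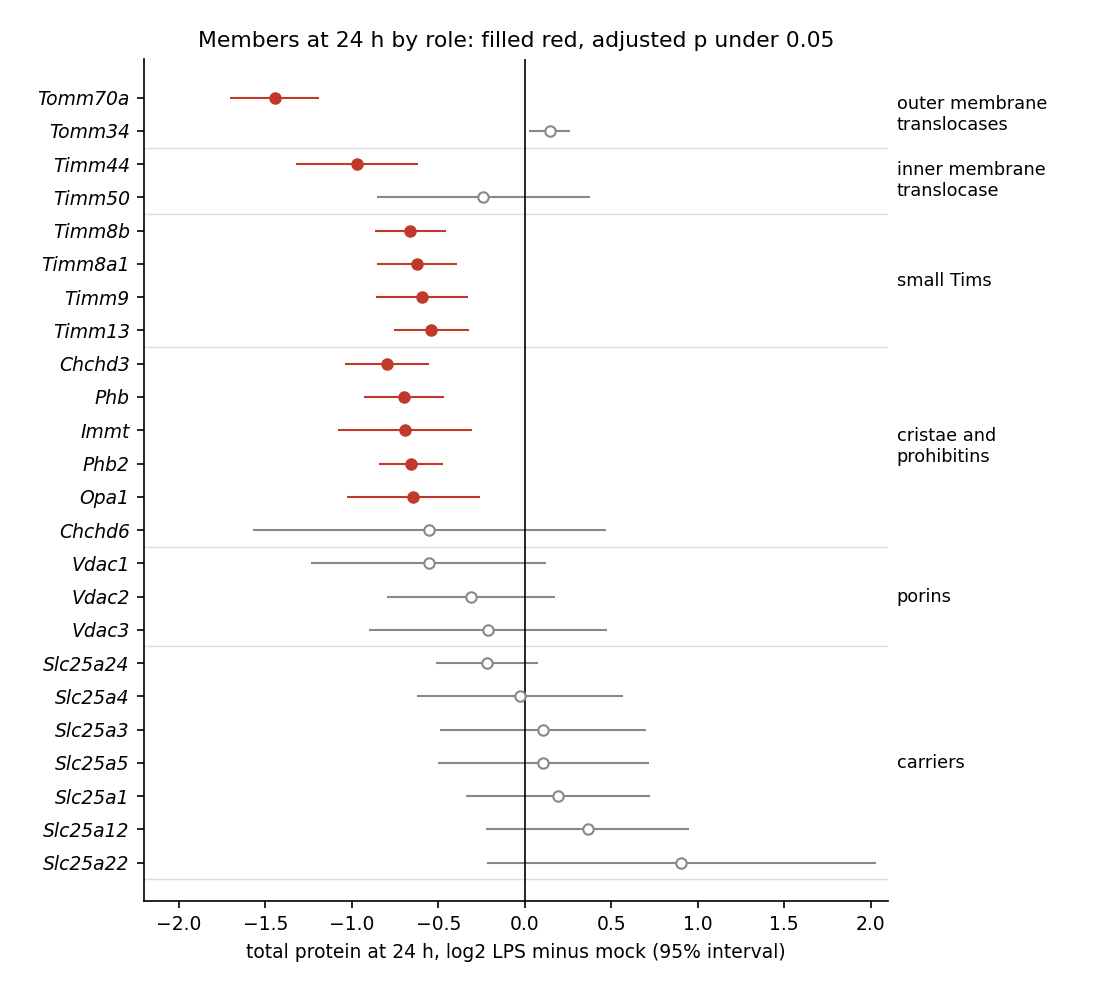
Difference in total protein at 24 h for the 24 members tested, as log2 LPS minus mock with 95% intervals, ordered by role class. The 11 filled red members, adjusted p under 0.05, are all lower after LPS and include every small Tim tested. Carriers and porins, in grey, have intervals that include 0.

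Tomm70a, the outer membrane receptor that takes carrier precursors from cytosolic chaperones, differed most. Its total was 0.868 and 0.922 in LPS cells at 24 h, against 2.41 and 2.46 in mock cells. At 0 h it was 0.899 and 1.10, so the LPS samples lay near 0 h and the mock samples far above it, with no overlap. The 24 h difference was -1.45 ± 0.12 (log2, SE; adjusted p = 2.27e-09), which placed it 22nd from the lowest of the 3095 proteins tested. Without division by the run factor its total was 0.607 and 0.897 in LPS cells and 1.51 and 1.93 in mock cells, so the groups did not overlap on that scale either.

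Timm44, which ties the import motor to the translocase channel, had totals of 0.826 and 0.894 in LPS cells, against 1.83 and 1.55 in mock cells (-0.97 ± 0.17, adjusted p = 7.5e-05). Timm50, the presequence receptor of the same translocase, had 1.02 and 0.761 in LPS cells and 0.906 and 1.20 in mock cells. Its groups overlapped, and its difference of -0.24 had a 95% interval from -0.85 to 0.37. Tomm34 had 0.970 and 0.916 in LPS cells and 0.835 and 0.872 in mock cells, a difference of 0.14 ± 0.06 (adjusted p = 0.0507) opposite in sign to that of Tomm70a.

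The small Tims, which form the chaperone hexamers of the intermembrane space, differed by similar amounts. Timm8b had 0.797 and 0.790 in LPS cells, against 1.26 and 1.25 in mock cells (-0.66 ± 0.10, adjusted p = 1.06e-05). Timm13, which pairs with Timm8a1, had 0.944 and 0.931 in LPS cells, against 1.29 and 1.44 in mock cells (-0.54 ± 0.11, adjusted p = 0.00023). Timm8a1 (-0.62 ± 0.11) and Timm9 (-0.60 ± 0.13) were also lower in LPS than in mock cells, and none of the 4 had overlapping groups.

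Among the cristae proteins the prohibitins were close to each other. Phb, a subunit of the prohibitin ring, had 0.741 and 0.822 in LPS cells, against 1.24 and 1.29 in mock cells (-0.70 ± 0.11, adjusted p = 2.51e-05). Phb2, its partner, had 0.862 and 0.873 in LPS cells, against 1.37 and 1.37 in mock cells (-0.66 ± 0.09, adjusted p = 2.48e-06). The LPS and mock samples of both lay apart, and the LPS samples overlapped those at 0 h, which were 0.786 and 0.817 for Phb and 0.888 and 0.842 for Phb2.

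MICOS, the complex at the neck of the cristae, differed in the same direction. Chchd3 had 0.833 and 0.885 in LPS cells, against 1.41 and 1.58 in mock cells (-0.80 ± 0.12, adjusted p = 7.12e-06). Immt, the core of MICOS, had 0.915 and 0.921 in LPS cells, against 1.59 and 1.38 in mock cells (-0.69 ± 0.19, adjusted p = 0.00478). Immt and Chchd3 are partners in the same complex, and both had their LPS values below every mock value. Opa1, which fuses inner membranes, had 0.901 and 0.959 in LPS cells, against 1.47 and 1.44 in mock cells (-0.64 ± 0.19, adjusted p = 0.00836). Without replicate 1 neither Immt (adjusted p = 0.135) nor Opa1 (adjusted p = 0.143) passed, and without replicate 2 Opa1 did not (adjusted p = 0.0784). With summed intensities in place of ratios the Opa1 difference had the opposite sign, 0.72 in total and 1.00 in M/L. Chchd6, the other MICOS member, had 2.21 and 2.39 in LPS cells and 3.06 and 3.70 in mock cells, without overlap, but its difference of -0.55 ± 0.48 (SE) did not pass (adjusted p = 0.42).

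For porins and carriers the replicates of the mock group lay far apart. Vdac1 had totals of 1.12 and 0.764 in LPS cells and 1.77 and 1.05 in mock cells, and Vdac2 had 0.985 and 0.861 in LPS cells and 1.36 and 0.962 in mock cells. The median gap between the 2 mock replicates, in absolute log2, was 0.76 over the 3 porins and 0.48 over 8 carriers, against 0.10 over 4 small Tims and 0.12 over 6 cristae proteins. Slc25a5 had 0.927 and 1.07 in LPS cells and 1.01 and 0.849 in mock cells, so the groups overlapped, and the 95% interval of its difference ran from -0.50 to 0.72. Slc25a4 differed by -0.03 with an interval from -0.63 to 0.57. The intervals of Vdac1 (-1.24 to 0.12), Vdac2 (-0.80 to 0.17) and Vdac3 (-0.90 to 0.47) included differences as large as those of the small Tims. Among the carriers the lower bound of Slc25a4 alone reached past the smallest small Tim difference of -0.54, and the others' lower bounds ran from -0.51 for Slc25a24 to -0.22 for Slc25a12 and Slc25a22.

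Members with missing values at 24 h could not be tested, and their M/L gave single points. The small Tim Timm10 had 0.572 and 0.587 in LPS cells, against 0.999 in the 1 mock run that measured it, and 0.661 and 0.631 at 0 h, so its LPS values were the lowest. Mtx2, an outer membrane partner of Samm50, had 0.505 in 1 LPS run, against 1.94 and 0.854 in mock cells. Tomm22 had 0.782 in 1 LPS run, against 1.19 and 0.934 in mock cells. All 3 lay below their mock values in the LPS runs. Samm50 did not, with 0.662 and 0.710 in LPS cells and 0.669 in 1 mock run, and Slc25a10, the dicarboxylate carrier, had 0.676 and 0.703 in LPS cells and 0.852 in 1 mock run.

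Set against 0 h, members were higher in mock cells at 24 h on the scale of the run factor, while LPS cells gave no call. This pair of comparisons was added after seeing the data, and both use the same 0 h runs. In mock cells 14 of 25 members were higher at 24 h than at 0 h and 1, Tomm34, was lower (-0.15 ± 0.06). Of all 3080 proteins 32.5% were called, 18.5% higher and 14.0% lower. The median over the 25 was 0.61, against 0.01 for all proteins. In LPS cells 0 of 23 members differed from 0 h in either direction by limma, 2 at an unadjusted p under 0.05, where 15.6% of 3135 proteins were called, 9.57% higher and 6.06% lower. Their median was 0.02. The classes were not alike in this. All 6 carriers (0.17 to 0.56, median 0.43) and all 3 porins (0.29 to 0.50, median 0.32) were above 0 h in LPS cells. The LPS median was -0.01 over 5 cristae proteins and -0.01 over 4 small Tims. In mock cells all 7 carriers (median 0.28) and all 3 porins (median 0.81) were above 0 h too. The mock median was 0.67 over 5 cristae proteins and 0.62 over 4 small Tims. The difference between classes was not tested.

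LPS against mock and mock against 0 h share the mock runs at 24 h. Overlap of their calls is therefore partly built in. All 11 members lower after LPS than after mock at 24 h were among the 14 that were higher in mock cells than at 0 h. Vdac1 (0.87 ± 0.33), Vdac2 (0.81 ± 0.23) and the calcium-regulated ATP-Mg/phosphate carrier Slc25a24 (0.39 ± 0.14) were the other 3. Without the run factor the mock comparison called 0 members, with a median of 0.13 over the members and of -0.47 over all proteins. The LPS comparison then had a median of -0.22 over the members and of -0.26 over all proteins, so which arm holds more of the gap depends on the scaling. Without replicate 1 the mock comparison called 7, all higher.

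**Figure D3:**
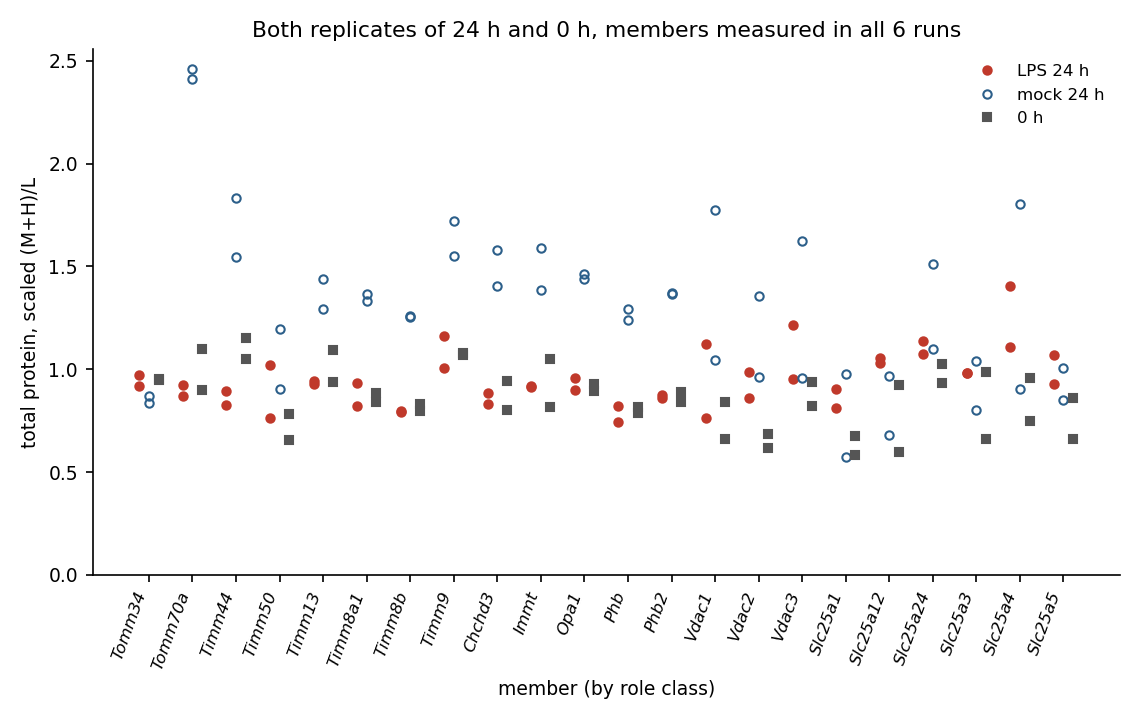
Total protein (scaled, 1 is the median protein of the run) in both replicates of LPS 24 h, mock 24 h and 0 h for the members measured in all 6 runs, ordered by role class. For the small Tims and cristae proteins the LPS points lie near the 0 h points and below the mock points, while carriers such as Slc25a5 overlap.

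Markers of cell types moved in the same comparison. Of 5 macrophage markers measured in all 6 of these runs 4 were lower after LPS than after mock at 24 h, and their summed total was 4.37 to 4.51 in LPS cells, 7.80 to 9.15 in mock cells and 4.64 to 4.74 at 0 h. Of 6 granulocyte markers 4 were lower, with sums of 5.26 to 6.16 in LPS cells, 11.2 to 11.4 in mock cells and 14.5 to 14.6 at 0 h. Of 5 dendritic cell markers 3 were lower, with sums of 3.92 to 4.74 in LPS cells, 5.25 to 6.08 in mock cells and 3.86 to 4.43 at 0 h. Of 2 erythroid and platelet markers 1 was lower, with sums of 2.78 to 3.15 in LPS cells, 3.81 to 4.20 in mock cells and 2.14 to 2.57 at 0 h. No lymphocyte marker was measured in all 6 runs. No marker was called higher, where 20.1% of all proteins were called lower and 17.7% higher. The part of these shifts in the members' difference was not tested.

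Before 24 h the difference was smaller and changed sign. At 0.5 h the members' median total was higher in LPS than in mock cells, by 0.28 over 26 members, and Tomm70a (0.59 ± 0.12, adjusted p = 0.0409) and Phb2 (0.38 ± 0.09, adjusted p = 0.043) passed, where 0.722% of all proteins were called higher and 0.0314% lower. Tomm70a then had totals of 1.41 and 1.41 in LPS cells, against 0.913 and 0.962 in mock cells. In M/L at 0.5 h 3 of 28 members were higher, Tomm70a (0.64 ± 0.15), Opa1 (0.59 ± 0.14) and Timm8a1 (0.34 ± 0.08). Of all proteins 1.16% were called higher and 0.406% lower. M/L counts pre-existing protein alone, and the cause of a rise within 0.5 h was not tested. Other mitochondrial proteins moved too. Their M/L (mean of the 2 replicate medians) was 1.12 in LPS and 1.00 in mock cells for the mitochondrial ribosome. It was 0.989 and 0.874 for the respiratory chain and 0.918 and 0.877 for other import proteins, whose replicates overlapped. Members were at 0.9157 and 0.7445, and all proteins at 0.855 and 0.861. The lists were not compared by a test. From 1 to 6 h no member's total passed at any single time by limma (0 of 160 tests, 13 at an unadjusted p under 0.05), where 0.653% of the tests over all proteins were called higher and 0.295% lower. The median over members was 0.00 at 4 h, -0.09 at 6 h, -0.11 at 9 h and -0.22 at 12 h. At 9 h Tomm70a alone was called lower, at 12 h Tomm70a, Timm8b and Phb, and at 24 h 11 members, while the percent of all proteins called lower was 3.75, 7.43 and 20.1 at these times and the percent called higher 5.25, 8.75 and 17.7.

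Over the late times of 6, 9 and 12 h together, 4 of 29 members were lower in total protein, and 0 were higher, where 19.5% of 3371 proteins were called, 9.37% lower and 10.1% higher. The member median was -0.12. Tomm70a ranged from 0.801 to 1.11 in the 6 LPS samples (median 0.996), against 1.23 to 1.57 in the 6 mock samples (median 1.34), with no overlap (-0.50 ± 0.07, adjusted p = 9.96e-06). Timm8b ranged from 0.763 to 0.932 in LPS samples (median 0.808) and from 0.889 to 1.10 in mock samples (median 1.05). It was lower in all 6 pairs matched by time and replicate (-0.29 ± 0.06, adjusted p = 0.000555). Phb (-0.21 ± 0.06, adjusted p = 0.0202) was lower in 6 of 6 pairs and lost its call without replicate 2 (adjusted p = 0.0516). Phb2 (-0.15 ± 0.05, adjusted p = 0.0487) was lower in 5 of 6 pairs. Its call was lost without either replicate (adjusted p = 0.0879 and 0.412) and without the LPS replicate 2 run at 12 h (adjusted p = 0.07), whose run factor, 0.69 on the log2 scale, stood apart from the next highest of 0.21. Without the run factor 0 of the 29 passed.

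Several members that passed at 24 h were lower over the late times without passing. Immt averaged 0.820 in LPS samples and 0.989 in mock samples and was lower in 6 of 6 pairs (-0.27 ± 0.11, adjusted p = 0.0907). Chchd3 averaged 0.981 in LPS samples and 1.08 in mock samples, also lower in 6 of 6 pairs (-0.13 ± 0.07, adjusted p = 0.213). Timm44 averaged 1.05 in LPS samples and 1.24 in mock samples (-0.25 ± 0.10, adjusted p = 0.0808). Opa1 was near level, at 1.11 in LPS samples and 1.15 in mock samples (-0.06 ± 0.11), with 3 of 6 pairs lower. The 9 carriers tested at these times ranged from -0.15 for Slc25a24 to 0.61 for Slc25a11, with a median of 0.03, and 0 passed by limma or at an unadjusted p under 0.05. Slc25a22 was at 0.35 ± 0.31 and Slc25a5 at 0.05 ± 0.17. The narrowest error was that of Tomm34, which averaged 0.923 in LPS samples and 0.916 in mock samples (0.01 ± 0.03).

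**Figure D4:**
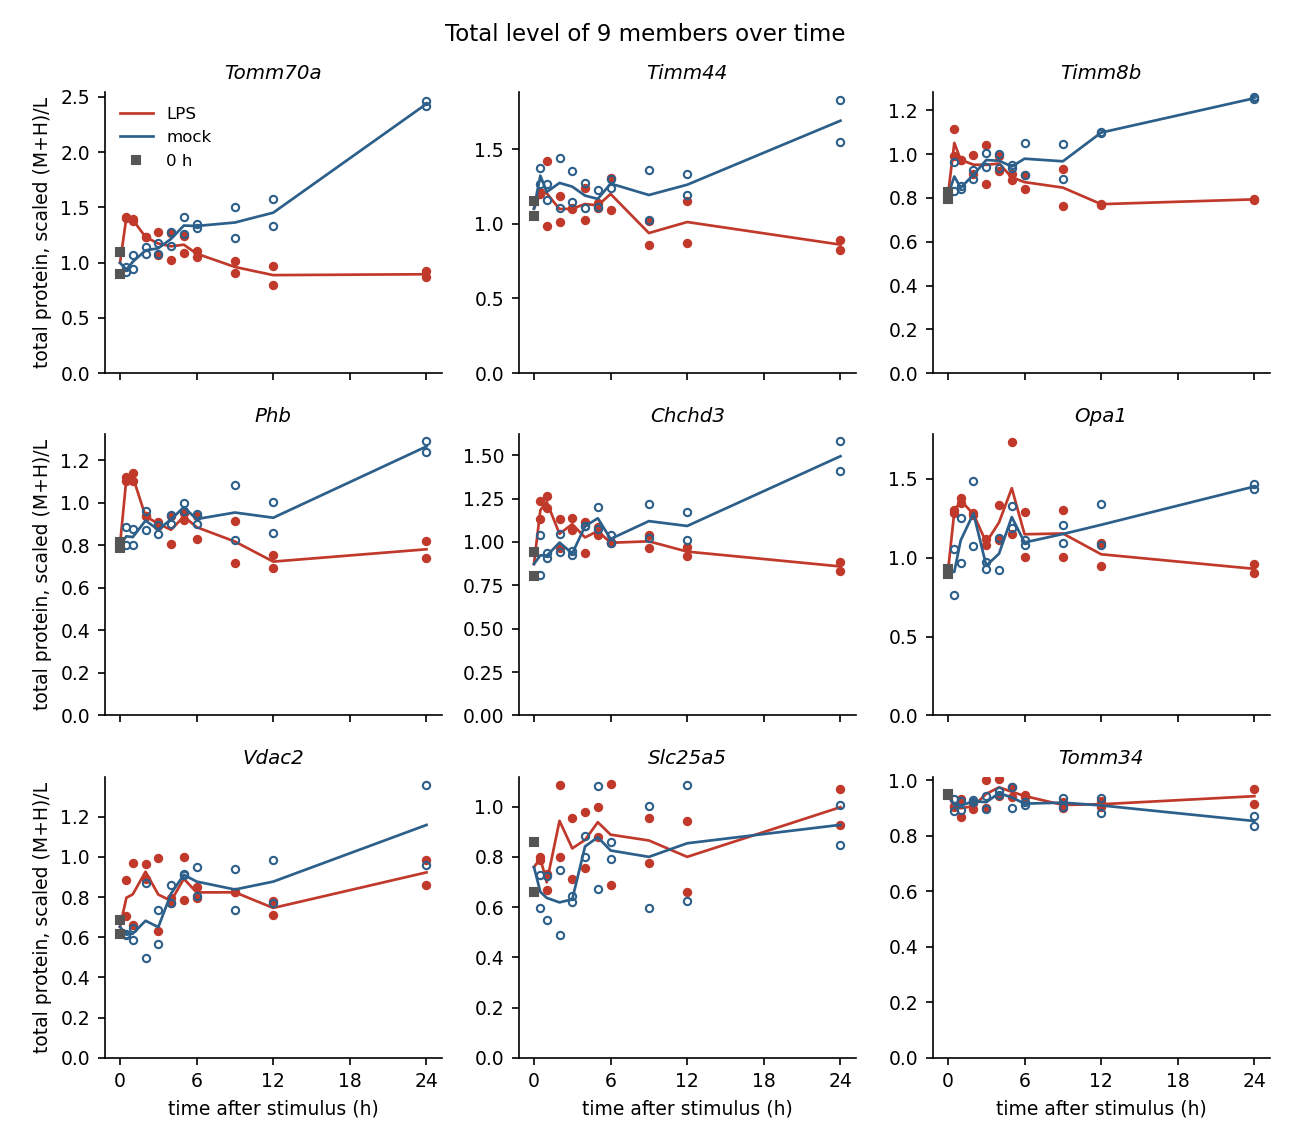
Total protein (scaled (M+H)/L) over time for 9 members, with LPS in red, mock in open blue and 0 h as grey squares; points are replicates and lines join means. Tomm70a starts above mock after LPS at 0.5 h, at 1.41 and 1.41, and ends below it at 24 h, while Tomm34 ends at 0.970 and 0.916 after LPS and at 0.835 and 0.872 after mock.

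Protein made before the stimulus, which is most of the total, also gave calls, but it was not compared with new protein by a test. At 24 h the median difference was -0.75 in M/L and -0.46 in H/L over 6 cristae proteins. It was -0.65 and -0.41 over 4 small Tims, 0.10 and 0.25 over 7 carriers, and -0.41 and 0.03 over 3 porins. In M/L at 24 h 11 of 24 members were lower and 0 higher, where 37.9% of 3136 proteins were called, 27.6% lower and 10.3% higher, and they were the 11 that were lower in total. Tomm70a had M/L of 0.542 and 0.587 in LPS cells, against 1.77 and 1.77 in mock cells and 0.745 and 0.940 at 0 h (LPS minus mock -1.65 ± 0.15, adjusted p = 5.35e-09). Immt did not pass in M/L without replicate 1 (adjusted p = 0.208) or without replicate 2 (adjusted p = 0.064), nor did Timm9 without replicate 1 (adjusted p = 0.0759). Mock M/L of Tomm70a was thus higher at 24 h than at 0 h although M marks protein made before the stimulus. Without division by the run factor its M/L was 0.379 and 0.571 in LPS cells at 24 h, 1.10 and 1.38 in mock cells at 24 h, and 0.612 and 1.09 at 0 h, so the mock values at 24 h were above those at 0 h on that scale too. The cause was not tested. At the late times 4 of 30 members were lower in M/L, and 0 higher, where 16.8% of 3481 proteins were called, 13.4% lower and 3.45% higher. These were Tomm70a (-0.63 ± 0.08), Timm8b (-0.27 ± 0.05), Phb2 (-0.22 ± 0.05) and Timm8a1 (-0.15 ± 0.04). With the replicate number as a block 8 were lower. Timm8a1 lost its call without replicate 1 (adjusted p = 0.558), and 7 members were lower without the LPS replicate 2 run at 12 h.

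New protein gave no call with the run factor and all runs in the fit. Some alternatives did call members, among them the deposited normalised ratios and a fit of only the compared runs. Their counts are given in the last section. In H/L over the late times 0 of 29 members passed by limma in either direction, 2 at an unadjusted p under 0.05, where 12.1% of 3371 proteins were called, 10.4% higher and 1.72% lower. The member median was -0.04 and that of all proteins 0.03. At 24 h 0 of 24 passed, 1 at an unadjusted p under 0.05, where 10.2% of all proteins were called, 7.88% higher and 2.33% lower. The member median was then -0.22, with 15 of 24 negative, and that of all proteins 0.06. All 6 cristae proteins (median -0.46) and all 4 small Tims (median -0.41) were negative. Of the carriers 5 of 7 were positive, and of the porins 2 of 3. These medians were not tested. H/M over the late times called 0 of 29, 2 at an unadjusted p under 0.05, where 12.3% of all proteins were called, 11.3% higher and 1.01% lower. The late minus early change in the LPS effect on new protein also called 0 of 29, 2 at an unadjusted p under 0.05, where 7.13% were called, 6.22% higher and 0.907% lower.

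The lowest members in late new protein were Phb, Slc25a13 and Timm8b. Phb had H/L from 0.0414 to 0.0672 in LPS samples (median 0.0550), against 0.0534 to 0.0866 in mock samples (median 0.0787). It was lower in 6 of 6 pairs, but its difference of -0.43 ± 0.17 did not pass (adjusted p = 0.106). The aspartate/glutamate carrier Slc25a13 (-0.37 ± 0.52) and Timm8b (-0.37 ± 0.27) did not pass either, and Slc25a13 was lower in only 1 of 5 pairs. At the other end were Tomm34 (0.26 ± 0.14), the 2-oxoglutarate/malate carrier Slc25a11 (0.47 ± 0.66, on 4 LPS and 6 mock values) and Slc25a22.

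Slc25a22, which brings glutamate into the matrix, was the member whose new protein differed most. Its H share, H as a percent of H plus M, was 62.1% and 63.5% in LPS cells at 24 h, against 18.9% and 21.5% in mock cells. At 12 h it was 48.3% and 47.3% in LPS cells, against 6.28% and 12.0% in mock cells, and neither time had overlap. Its late H/L ranged from 0.135 to 0.363 in LPS samples (median 0.274) and from 0.0136 to 0.217 in mock samples (median 0.0520). The late difference in H/L was 2.38 with a 95% interval from 0.12 to 4.64 and did not pass (adjusted p = 0.216). With only the compared runs in the fit it did (adjusted p = 0.0482). The mock values scattered widely, from 0.865% to 77.4% H in the 2 replicates at 4 h, on a median of 4 M/L peptide pairs a run. At 0 h, before any heavy label, the 1 run that measured it gave 31.6%. Its pre-existing protein at 24 h was 0.429 and 0.504 in LPS cells and 0.633 and 0.466 in mock cells, with overlap.

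**Figure D5:**
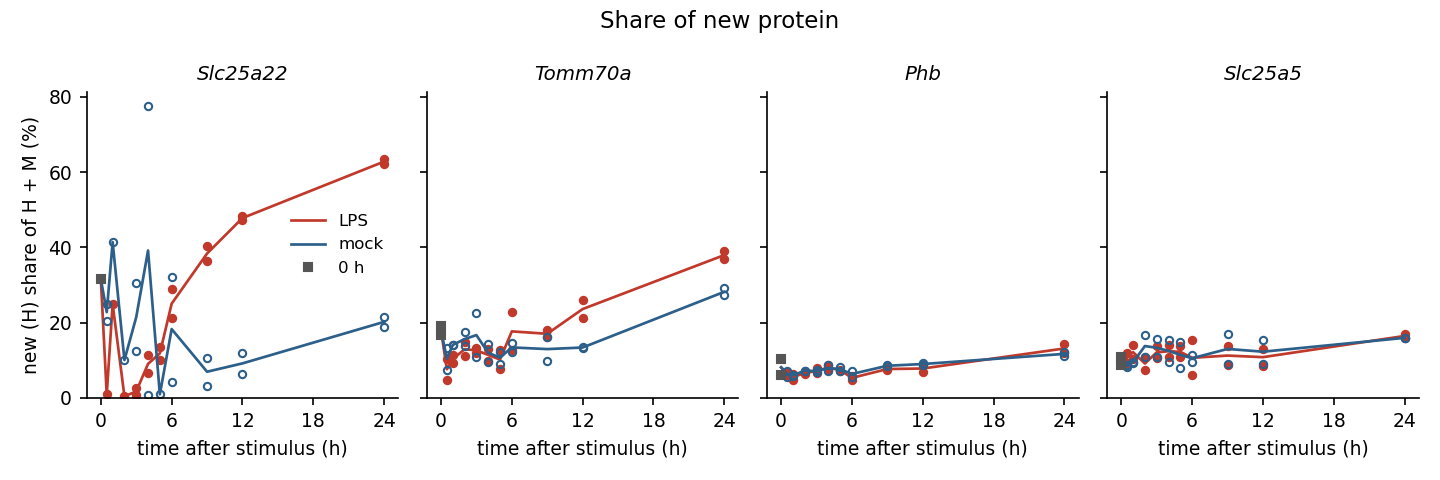
New (H) share of H plus M in percent over time for 4 members, with LPS in red, mock in open blue, 0 h as grey squares; points are replicates and lines join means. Slc25a22 reaches 62.1% and 63.5% in LPS cells at 24 h, against 18.9% and 21.5% in mock cells, whereas Slc25a5 is at 16.9% and 16.0% in LPS cells, against 16.0% and 15.9% in mock cells.

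Replacement of the members by new protein was slow. The change per hour in log2 M share, fitted from 0.5 to 12 h and called the slope here, had a median of -0.0013 per h over 30 members in mock cells, against -0.0083 over 3459 proteins. In LPS cells the medians were -0.0058 over 30 members and -0.0092 over 3463 proteins. Slow replacement was not particular to the members. The mock median was -0.0017 over 24 other import proteins, -0.0053 over 59 respiratory chain proteins and -0.0016 over 41 mitochondrial ribosomal proteins. In these lists 8.33%, 33.9% and 17.1% had a mock 95% interval below 0. In mock cells 5 of the 30 members had a 95% interval below 0, where 43.7% of all proteins did. These were Tomm22, the central TOM receptor (-0.033), Timm10 (-0.020), Timm8b (-0.013), Tomm34 (-0.0063) and Phb (-0.0034). For Timm8b this is a half-time of 77.2 h with a 95% interval from 54.8 to 130.4 h, and for Phb 290.1 h (192.1 to 591.9), beyond the 12 h observed and with no account of growth.

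The 3 most negative mock slopes were those of Tomm22, Timm10 and Chchd6 (-0.014, interval from -0.094 to 0.066). The 3 most positive were those of Slc25a22 (0.038), the aspartate/glutamate carrier Slc25a12 (0.024) and the phosphate carrier Slc25a3 (0.013), all with intervals that included 0. A background H signal bears on all of these. The members' median H share at 0 h was 12.9%, and it was 17.2% in LPS cells and 15.7% in mock cells at 12 h, and 24.6% in LPS cells and 20.7% in mock cells at 24 h.

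The slope differed between LPS and mock cells for 2 of 29 members, both more negative after LPS. Of 3342 proteins 13.9% were called, 12.1% more negative and 1.74% less. Tomm70a had a slope of -0.020 per h in LPS cells and 0.00058 in mock cells (difference -0.021 ± 0.0055, adjusted p = 0.00621). Slc25a22 had -0.082 in LPS cells, a half-time of 12.2 h (9.36 to 17.3), and 0.038 in mock cells (difference -0.12 ± 0.04, adjusted p = 0.0368). Neither passed without replicate 2 (adjusted p = 0.22 for Tomm70a and 0.329 for Slc25a22). With the deposited normalised ratios neither passed, and the Tomm70a difference had the opposite sign. The H share of Tomm70a was 39.0% and 36.9% in LPS cells at 24 h, against 27.2% and 29.2% in mock cells, while its H/L was 0.326 and 0.335 in LPS cells, against 0.648 and 0.695 in mock cells. The H/L difference of -1.02 ± 0.40 did not pass (adjusted p = 0.123).

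Other mitochondrial proteins behaved in the same direction at 24 h. Of 20 other proteins of import, processing and quality control tested in total protein, 10 were lower and 0 higher, with a median of -0.51. Among them were mortalin, Hspa9, the motor of matrix import (-0.56 ± 0.08), its exchange factor Grpel1 (-0.68 ± 0.10), the presequence peptidase subunits Pmpca (-0.54 ± 0.09) and Pmpcb (-0.57 ± 0.10), and the matrix chaperonin Hspd1 (-0.51 ± 0.07). The respiratory chain had 38 lower of 56 with a median of -0.60, and the mitochondrial ribosome 21 lower of 33 with a median of -0.59. The member median of -0.55 lay between those of these lists. At the late times 7 of 22 other import proteins, 23 of 59 respiratory chain proteins and 12 of 40 mitochondrial ribosomal proteins were lower, against 4 of 29 members. Of all proteins tested in total protein, 20.1% were called lower and 17.7% higher at 24 h. The shares were 9.37% lower and 10.1% higher at the late times. No difference between the lists was tested.

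Promoters are shown for a member lower at 24 h with a match, one not called with a match, and Tomm70a, because NRF-1 is a known regulator of nuclear genes for mitochondrial proteins. The motif searched, GCGCA and GCGC with any 1 base between them, was read on both strands, in the 250 bases before the start in RefSeq's table (GRCm38.p6). Of 39 member genes with an entry, 4 (10.3%) held it, as did 4.23% of all 27025 genes of the table. It was in 1 of 11 members lower at 24 h, Opa1, and in 1 of 11 tested and not called, Slc25a3, and the other 2 were Chchd4 and Tomm20. The motif is in capitals and Tomm70a, the member that differed most at 24 h, has none. In Opa1 the same letters match on both strands, 59 bases before the start. A match of letters is no measurement of binding, and no match says only that the letters are not in this window.
Opa1 (chr16:29579084-29579333, + strand): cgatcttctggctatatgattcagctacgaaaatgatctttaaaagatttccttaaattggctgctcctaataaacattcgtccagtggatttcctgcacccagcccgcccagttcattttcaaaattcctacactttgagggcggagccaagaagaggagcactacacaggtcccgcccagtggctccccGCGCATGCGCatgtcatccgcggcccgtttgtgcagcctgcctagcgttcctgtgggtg
Slc25a3 (chr10:91123968-91124217, - strand): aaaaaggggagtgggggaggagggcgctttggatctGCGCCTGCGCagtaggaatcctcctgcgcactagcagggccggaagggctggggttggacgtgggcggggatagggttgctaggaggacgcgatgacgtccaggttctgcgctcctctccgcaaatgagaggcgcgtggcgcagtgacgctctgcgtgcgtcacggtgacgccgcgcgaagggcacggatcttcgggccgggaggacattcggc
Tomm70a (chr16:57121464-57121713, + strand): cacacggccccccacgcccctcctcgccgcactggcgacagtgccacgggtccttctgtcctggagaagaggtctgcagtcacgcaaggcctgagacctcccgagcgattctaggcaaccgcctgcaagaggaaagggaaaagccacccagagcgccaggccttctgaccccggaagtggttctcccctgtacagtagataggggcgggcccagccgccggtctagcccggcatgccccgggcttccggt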

How the data were processed

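For each run the authors deposited the SILAC ratio of every channel pair, un-normalised and as a normalised ratio, with a ratio count (the peptide pairs behind each ratio), summed intensity per channel and iBAQ, per the file headers; column names are those of MaxQuant. Version and settings are not stated; the submitters' processing notes list the build mm9. Peptide and length columns of the deposited tables are other whole numbers and were used as given.

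Un-normalised ratios were divided by the run factor (log2 -0.68 to 0.69) and taken to log2. Of 6266 trypsin groups, those marked reverse (90), contaminant (97) or by site alone (216) were left out. limma 3.58.1 in R 4.3.3 was fitted to 21 groups of 2 runs, with contrasts of LPS minus mock. A protein needed 4 of 6 values in each late arm, all values at 24 h, and 12 of 18 for a slope. Each comparison's p-values were adjusted by Benjamini-Hochberg across every protein tested. Same-numbered replicates of LPS and mock deviated together (correlation over 0.1 at 10 of 10 times in M/L, H/L and total), so the number pairs the samples; the blocked count is given where it differs by over 1.5 times. On simulated data the 24 h total test recovered 59% of changes of -0.5 and 89% of changes of -1 (log2). The simulation changed 100 of 3095 proteins by each amount, all measured in every run, with independent noise. In the data 37.8% were called and replicates deviated together, so these rates need not hold for the members.

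Members and lists were chosen with earlier results of these data known. Named members were those called, the best covered of each class, the 3 highest and 3 lowest in late new protein and in mock slope, and the sets of porins, ADP/ATP translocases, prohibitins and cristae proteins. Alternatives were other scalings, the deposited normalised ratios, summed intensities, filters, left-out replicates and only the compared runs. Figures used Python 3.11.15, pandas 2.3.3 and matplotlib 3.10.9. No per-sample column was left unmatched (0).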

Additional observations from a re-analysis of the deposited data

Results flagged for a closer look

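Signals of import and twin CX9C proteins appeared in the unlabelled 0 h digests that the comparisons do not use, for proteins with no group in the trypsin table. Chchd2, a twin CX9C protein, lay at the 84.6 and 86.1 percentiles of iBAQ in the AspN replicates 1 and 2. Tomm5, a small subunit of the TOM channel, lay at the 35.1 percentile in LysN replicate 2. Each was listed because a value was present in a digest without control samples, and with no counts no limit of detection was set. Groups of 2 samples are too small for a test of a single sample that stands apart.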

How the results depend on the processing

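Among the single-protein results, direction and call were kept in 302 comparisons with an alternative, the call was lost with the same direction in 127, gained in 1 and the direction changed in 11. Without the run factor no member was called (0) in old late, total late, old 24 h, total 24 h or the mock rise from 0 h; with the replicate block added these gave 1, 1, 6, 8 and 2, and LPS 24 h against 0 h gave 2. The deposited normalised ratios called 4 in new late, 1 in H/M late, 2 in total at 24 h, 7 in late minus early and 0 for the slope. Summed intensities called 2 in old late, 0 in total late, 1 in H/M late, 7 in old at 24 h, 4 in total at 24 h and 1 for the slope. A fit of only the compared runs, with fewer residual degrees of freedom, called 1 in new late, 2 in total late, 1 in H/M late, 2 in new at 24 h and 1 in late minus early. Each channel's own median called 1 in new late, values in every run called 1 for the slope, and the replicate block called 8 in old late and changed no other count by over 1.5 times. Leaving out replicates gave 0 to 1 in new late, 4 to 5 in old late (7 without the LPS replicate 2 run at 12 h), 2 to 3 in total late, 9 to 12 in old at 24 h, 9 to 11 in total at 24 h, 0 to 2 for the slope and 7 to 12 for mock 24 h against 0 h; at 24 h this leaves 1 sample a group, assumed to vary like the others. The direction changed for Timm8a1 old late (0.0203) and Phb2 total late (0.0199) without the run factor, with or without the block, likewise for Slc25a24 (-0.0855) and Timm13 (-0.0517) in mock 24 h against 0 h, for Opa1 at 24 h with summed intensities (1.00 old, 0.719 total), and for the Tomm70a slope with normalised ratios (0.0084). The median mock slope was 0.0202 when scaled M/L was regressed on time and -0.0062 to 0.0022 without a replicate, and the member median iBAQ at 0 h was 0.211 to 0.361. A ratio count of at least 2 changed no count. The causes were not tested. Depth limits the members with few pairs, and 24 h rests on 2 samples a group.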
